A study of Mus musculus with 32 samples.

Results

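HL-1 cells, a mouse cardiomyocyte line of atrial origin, were kept in medium derived from AML12 cells, a mouse hepatocyte line, and their RNA was sequenced. The comparison described here is that of HL-1 cells in conditioned medium (CM) with HL-1 cells in control medium at 28 h. The series holds 32 libraries, 16 of them from HL-1 cells. The 8 libraries compared were chosen by their labels and by the column heads of the HL-1 count table: 4 columns headed ZT28-DEX, labelled HL-1-CM-28 h, and 4 columns headed ZT28-con, labelled HL-1-control-28 h. By the labels, the CM group received AML12-derived conditioned medium with DEX synchronization and the control group received AML12-derived control medium without it. DEX is the usual short form of dexamethasone, a glucocorticoid used to bring the clocks of cultured cells into step. The 2 groups therefore differ in DEX as well as in what AML12 cells released, and these cannot be told apart. All 8 libraries come from 1 cell line with no genetic change named, and the labels do not say from which moment the 28 h are counted. Separate cultures are not named for the 4 libraries within each group, so p-values measure only the spread between libraries, which may be technical. A further 8 HL-1 libraries, 4 in CM and 4 in control medium at 16 h, are used to ask whether an effect differed between the times.

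The circadian clock of mammalian cells is a feedback loop of transcription. BMAL1 (gene Arntl) and CLOCK bind E-boxes and switch on Per, Cry, Nr1d and the PAR bZIP genes Dbp, Tef and Hlf. PER and CRY proteins then block BMAL1 and CLOCK, NR1D proteins repress Arntl, and PAR bZIP factors act at D-boxes. Heart muscle cells carry such a clock, and dexamethasone or serum can reset it in culture. Glucocorticoids also restrain NF-kB, the transcription factor that drives many chemokine and cytokine genes.

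Promoters of genes described below are shown so that the binding letters of these factors can be seen beside the measured changes. Each line gives the 250 bases before a RefSeq transcription start on GRCm38.p6, read 5′ to 3′ on the gene's strand, with the motif match in capitals. The motifs searched on both strands were the E-box CACGTG, the D-box TTATGTAA and the NF-kB site, spelled GGGA, any base, then TTTCC. Of 32851 RefSeq promoters of the same length, 6.02% held the E-box letters, 0.819% the D-box letters and 0.356% the NF-kB letters.
Cry1, chr10:85185055-85185304, minus strand: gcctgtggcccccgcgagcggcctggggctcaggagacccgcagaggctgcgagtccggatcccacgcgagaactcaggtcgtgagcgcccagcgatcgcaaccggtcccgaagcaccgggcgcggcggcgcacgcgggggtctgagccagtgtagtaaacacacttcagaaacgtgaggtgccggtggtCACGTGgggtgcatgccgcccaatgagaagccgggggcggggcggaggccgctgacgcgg
Tef, chr15:81811164-81811413, plus strand: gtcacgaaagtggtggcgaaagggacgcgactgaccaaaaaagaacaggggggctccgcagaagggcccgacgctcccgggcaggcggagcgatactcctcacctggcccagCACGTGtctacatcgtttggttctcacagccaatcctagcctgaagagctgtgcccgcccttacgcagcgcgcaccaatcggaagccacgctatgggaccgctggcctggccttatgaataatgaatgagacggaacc
Per3, chr4:151044666-151044915, minus strand: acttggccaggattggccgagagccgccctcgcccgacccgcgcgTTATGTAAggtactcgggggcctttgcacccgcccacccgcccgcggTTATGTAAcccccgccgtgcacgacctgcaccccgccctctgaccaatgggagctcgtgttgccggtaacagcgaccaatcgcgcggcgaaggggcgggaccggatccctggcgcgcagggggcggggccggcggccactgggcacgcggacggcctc
Cxcl1, chr5:90890995-90891244, plus strand: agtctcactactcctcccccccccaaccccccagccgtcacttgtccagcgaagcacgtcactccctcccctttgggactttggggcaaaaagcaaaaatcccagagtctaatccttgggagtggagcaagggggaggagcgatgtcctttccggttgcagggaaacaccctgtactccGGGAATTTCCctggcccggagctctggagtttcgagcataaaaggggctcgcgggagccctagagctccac
Il6, chr5:30012864-30013113, plus strand: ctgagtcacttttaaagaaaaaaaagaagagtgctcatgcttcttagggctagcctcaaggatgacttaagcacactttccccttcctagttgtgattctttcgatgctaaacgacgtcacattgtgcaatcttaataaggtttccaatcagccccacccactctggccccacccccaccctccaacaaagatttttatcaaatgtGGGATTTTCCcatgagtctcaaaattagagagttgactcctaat
The E-box begins 60 bases before the start in Cry1 and 138 bases before it in Tef, and the D-boxes of Per3 begin 205 and 158 bases before its start. The NF-kB letters begin 71 bases before the start in Cxcl1 and 44 bases before it in Il6. A match is a description of the letters and was not tested as a binding site. No match was found in the windows of Per3, Nr1d2 and Arntl for the E-box, of Cry1, Tef, Nr1d2 and Arntl for the D-box, or of Ptgs2, Il1a and Saa3 for the NF-kB site. The promoter set used here held no sequence for Per2, Ccl2, Ccl7, Cxcl5, Vcam1 and Nfkbiz, so these could not be searched.

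Library totals ran from 16028158 to 18104661 counts in control and from 17513896 to 19176853 in CM, and all levels below are in CPM, counts scaled to library total after TMM scaling. The label of cardiomyocytes was checked against 18 markers, of which 5 reached 1 CPM (Tnnt2, Gja1, Des, Nkx2-5 and Gata4). Actc1, Mybpc3, Myl7, Pln and Sln had no count in the 8 libraries, which allows a level of up to 0.0216 CPM each by counting error alone, and Myh6 and Nppa had 3 counts each. Defining sarcomere and atrial genes of the labelled cell type were thus at or near 0 in both groups. Vim, an intermediate filament gene of mesenchymal cells, stood at 6449 ± 242 CPM in control and 6336 ± 277 in CM (SD, n = 4 each). Of 30 hepatocyte markers 17 were at 0, including Alb, Apoa1 and Ttr, and 26 were under 1 CPM. The summed level was 186 to 211 CPM in control and 207 to 223 in CM. Most of it was Krt19 (183 ± 13.0 CPM in control and 192 ± 5.77 in CM), so the sum follows that 1 gene. CM replicates 3 and 4 stood apart in nuclear RNA: Malat1 was at 1057, 776, 1142 and 1016 CPM in the controls and at 880, 906, 1650 and 1614 in CM. Neat1 was at 426, 395, 461 and 434 CPM in the controls and rose to 501, 486, 679 and 642 in CM (log2 fold change 0.43 ± 0.07, edgeR adjusted p = 0.000998), a call that ended without CM replicates 3 and 4 (adjusted p = 0.0611). The part of this difference in the results was not tested, so the counts are also given without those 2 libraries. That fit keeps only 2 CM libraries, so a call can also end there through lost power. Over all genes, chi-square per degree of freedom between pairs of libraries was 2.11 to 3.04 in control. In CM it ran from 3.39 (replicates 1 and 3) to 9.74 (replicates 2 and 4).

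CM changed few genes at 28 h and most of them by little. Of 14450 genes tested with edgeR's quasi-likelihood test, 278 (1.92%) passed a Benjamini-Hochberg adjusted p of 0.05, 102 higher in CM (0.706%) and 176 lower (1.22%). Below, several lists with calls in only 1 direction are set against the share of all genes called in that direction. That direction was read from the calls themselves, and the share called in either direction is 1.92%. The median size of a called change was 0.29 on the log2 scale, the median over all genes tested was -0.01, and 1842 genes had an unadjusted p under 0.05. In 267 of the 278 called genes the 4 CM libraries lay all above or all below the 4 controls, a pattern seen in 7.74% of all genes tested. The genes named below for the largest changes or smallest p had to show this pattern. Lack of overlap in them is thus a condition of their choice and no further support. A change of at least 2-fold was called for 11 genes (0.0761%), 3 higher and 8 lower. Without CM replicates 3 and 4, 113 genes were called, 106 of them among the 278. Without CM replicate 3 the count was 171, without control replicate 1 it was 181, and over all 8 cases it ran from 171 to 327. The genes called higher were 50, 58, 67 and 67 without control replicate 1, 2, 3 or 4, 55 without CM replicate 3 and 30 without CM replicates 3 and 4. The genes called lower were 116 without CM replicate 3 and 83 without CM replicates 3 and 4.

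Among genes with an assigned name, the largest rise was that of Smoc2, a matricellular protein that binds calcium, at 0.431, 0.501, 0.555 and 0.630 CPM in the controls and 1.31, 1.73, 1.18 and 1.73 in CM (log2 fold change 1.48 ± 0.28, edgeR adjusted p = 0.00254). It was followed by Edn1, the precursor of the vasoconstrictor endothelin-1 (0.98 ± 0.20, adjusted p = 0.00704 by edgeR), and the imprinted RNA H19. The other rises of at least 2-fold were those of Gm15867 and Gm37366, transcripts of unknown role at about 1 CPM that fall outside the naming rule and were named after their values were seen (1.56 and 1.37). The largest falls were in Ccl3, a chemokine for monocytes (-1.58 ± 0.26, edgeR adjusted p = 0.000628), Il1rl1, the receptor of interleukin-33 (-1.55 ± 0.31), and Npy1r, a receptor of neuropeptide Y (-1.51 ± 0.20). P2rx1, an ATP-gated channel, fell by 1.38, Il1a by 1.33, Sprr2h by 1.22, Dcn by 1.06 and Sfrp4, a secreted Wnt modulator, by 1.03. These 8 genes and Saa3, Rgs16, Per2, Usp17le, Prl2c2, Agt and Nr4a2 made up the 15 largest falls among called genes with an assigned name, separated groups and at least 1 CPM in either group. Most of the genes with the steepest changes were near the lower end of detection, and Sprr2h, Usp17le, Prl2c2 and Saa3 have close copies whose reads the authors' counting could have split. Npy1r, at 2.83, 3.51, 3.17 and 3.15 CPM in the controls against 0.912, 0.995, 1.12 and 1.40 in CM, shows how low these levels were. Leaving out 1 library ended the call in 7 of the 15 largest rises and 3 of the 15 largest falls. These were Klhl33 (7 of 8 cases, edgeR adjusted p up to 0.179 without CM replicate 4), Lef1 (7, up to 0.0858 without CM replicate 3), Slc40a1 (6, up to 0.138 without control replicate 1), Apob (5, up to 0.18 without control replicate 2), Ttn (4, up to 0.0841 without CM replicate 4), Ptx3 (4, up to 0.114 without control replicate 1), Pdzd7 (2, up to 0.0611 without control replicate 3), Sprr2h (6, up to 0.0911 without control replicate 3), P2rx1 (3, up to 0.0694 without control replicate 1) and Agt (3, up to 0.0757 without CM replicate 3). The calls of Gm15867 and Gm37366 ended in 4 and 5 cases (up to 0.069 without CM replicate 1 and up to 0.171 without CM replicate 3). Without CM replicates 3 and 4 together, the call of Il1rl1 ended as well (adjusted p = 0.142).

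**Figure D1:**
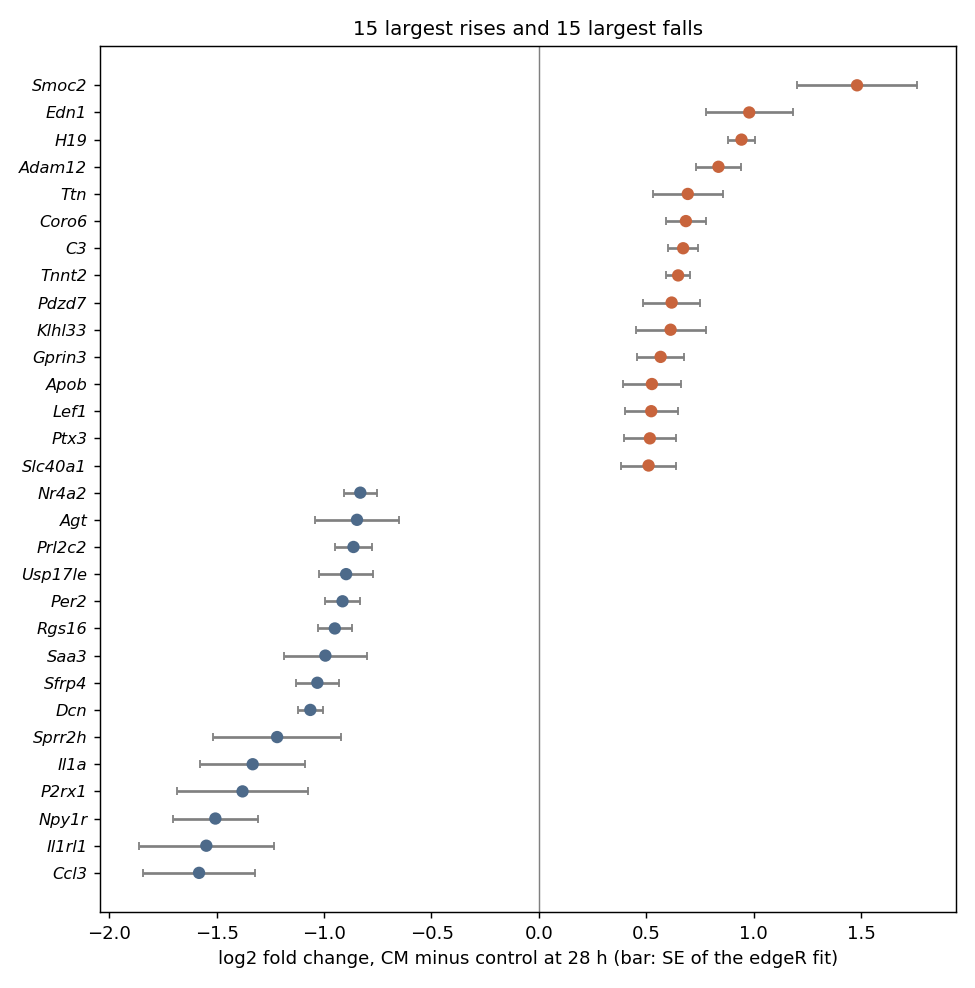
Log2 fold change, CM minus control at 28 h, of the 15 largest rises and 15 largest falls (points), with the standard error of the edgeR fit as bars. The falls reach -1.58 (Ccl3) and the rises 1.48 (Smoc2), and the bars are narrow for Dcn, H19 and Tnnt2.

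Clock genes moved in both directions at 28 h, with 3 of the Per and Cry genes, Nr1d2 and the activator Tef lower and Arntl higher in CM. All 22 genes of the clock list were tested: 5 fell (Per2, Per3, Cry1, Tef and Nr1d2), 1 rose (Arntl) and 16 did not pass. The 27.3% called compares with 1.92% of all genes, and the list's median log2 fold change was -0.09, against -0.01 over all genes, with 17 members below 0. Per2 (chr1:91415982-91459324, minus strand), a repressor of BMAL1 and CLOCK, was at 18.8, 21.3, 22.5 and 20.2 CPM in the controls and at 10.4, 11.5, 10.7 and 11.4 in CM. The groups did not overlap, which the naming rule required, and the level in control was 1.88 times that in CM (log2 fold change -0.91 ± 0.08, edgeR adjusted p = 7e-08). Per3, its paralog, was at 23.3, 22.8, 25.4 and 25.2 CPM in the controls and at 13.3, 15.9, 17.3 and 16.2 in CM (-0.62 ± 0.07, adjusted p = 7.06e-06). Cry1, the partner of PER proteins in repression, whose promoter with its E-box is printed above, was at 23.3, 22.7, 21.3 and 18.5 CPM in the controls and at 14.6, 15.7, 13.1 and 12.8 in CM (-0.61 ± 0.08, adjusted p = 1.55e-05). The lowest control of both genes lay above the highest CM library. Tef, a D-box activator whose gene also holds an E-box in its promoter, fell from 85.0, 80.0, 87.9 and 87.7 CPM to 63.9, 63.7, 59.2 and 61.8 (-0.45 ± 0.04, edgeR adjusted p = 7e-08). Nr1d2, which encodes REV-ERBβ, a repressor of Arntl, fell from 56.3, 58.5, 56.9 and 59.9 CPM to 50.5, 49.2, 43.4 and 47.8 (-0.28 ± 0.05, adjusted p = 0.00239).

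Arntl was the 1 clock gene that rose. It stood at 42.5, 41.9, 43.3 and 43.2 CPM in the controls and at 49.2, 50.4, 53.2 and 50.8 in CM, a rise of 0.25 ± 0.05 on the log2 scale (edgeR adjusted p = 0.00433) with no overlap. Its partner Clock was at 159, 150, 158 and 156 CPM in the controls and 155, 166, 157 and 144 in CM, with no call (0.00 ± 0.05). Nr1d1, the paralog of Nr1d2, gave 0.00 ± 0.07 and was not called either. Dbp, an E-box target like Tef, was lower in every CM library than in every control (8.39 to 9.45 CPM against 4.82 to 8.14) but missed the threshold (-0.56 ± 0.17, edgeR adjusted p = 0.102), as did Cry2 (-0.34 ± 0.09, adjusted p = 0.0556). Both passed with DESeq2 (adjusted p = 0.0234 and 0.0324) and without the low-count filter (0.00013 and 0.0268), and Dbp also in a fit of the 8 libraries alone (0.022). The edgeR fit without the filter gave far smaller adjusted p for some genes, among them Malat1 (9.19e-17, against 0.351 in the main fit). Its calls are thus weak support. Npas2, a paralog of Clock, and Hlf, a relative of Tef, were at or under 1.60 CPM in every library and gave 1.06 ± 0.33 (adjusted p = 0.118) and -1.04 ± 0.40 (adjusted p = 0.243, edgeR). Clock, Nr1d1 and other members not called, 11 in all, lay between -0.26 and 0.03, with edgeR adjusted p of 0.524 or more. These include Per1, Rora, Nfil3, Bhlhe40, Bhlhe41, Ciart and the kinases Csnk1d and Csnk1e. The 6 clock calls held without each of the 8 libraries in turn. Without CM replicates 3 and 4 together, those of Nr1d2 (-0.22 ± 0.06, edgeR adjusted p = 0.0989) and Arntl (0.22 ± 0.06, adjusted p = 0.126) ended, and Per2 was at -0.92 ± 0.11.

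**Figure D2:**
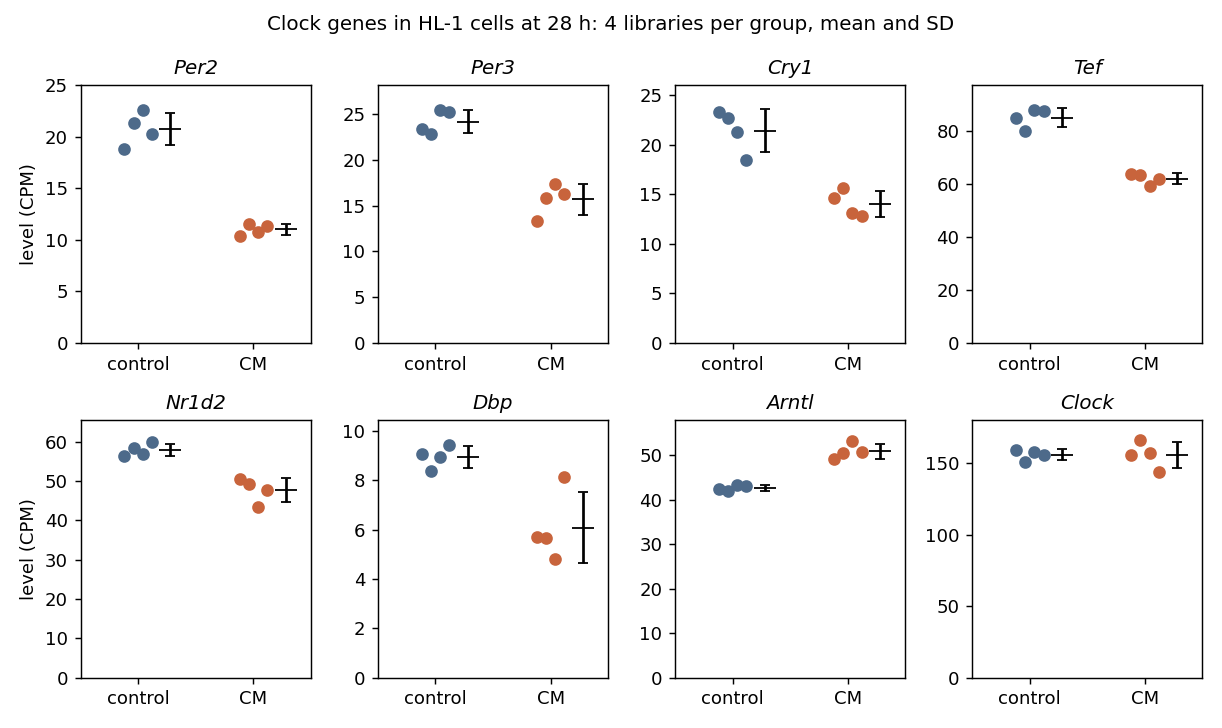
Levels in CPM of 8 clock genes in the 4 control and 4 CM libraries at 28 h (points), with the mean and SD beside them, on axes that start at 0. CM lies below control for Per2, Per3, Cry1, Tef, Nr1d2 and Dbp (Dbp not called), above it for Arntl, and on both sides of it for Clock (144 to 166 CPM against 150 to 159).

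Chemokine, cytokine and other NF-kB target genes were lower in CM. Of 38 genes in the list 28 were tested: 10 fell, none rose and 18 did not pass (35.7% called, against 1.22% of all genes called lower). The median was -0.19 and 24 of the 28 were below 0. Ptgs2 (chr1:150100031-150108227, plus strand), the inducible cyclooxygenase of prostaglandin synthesis, was at 235, 224, 248 and 224 CPM in the controls and at 158, 169, 167 and 151 in CM (-0.53 ± 0.05, edgeR adjusted p = 7e-08). Ccl2, which attracts monocytes, was at 155, 150, 138 and 147 CPM in the controls and at 101, 113, 80.9 and 84.7 in CM (-0.63 ± 0.08, adjusted p = 1.11e-05). Both genes separated the groups fully, which the naming rule required of Ptgs2, and within CM replicates 3 and 4 had the lowest Ccl2. Its neighbour and paralog Ccl7 was at 104, 94.9, 89.9 and 88.1 CPM in the controls and at 66.2, 70.0, 47.6 and 60.0 in CM (-0.63 ± 0.08). Cxcl1, a neutrophil chemokine with the NF-kB letters shown in its promoter, was at 343, 351, 329 and 348 CPM in the controls and at 259, 267, 256 and 267 in CM (-0.38 ± 0.05, edgeR adjusted p = 3.45e-05). Cxcl5, a relative of Cxcl1 at 964, 921, 905 and 866 CPM in the controls, was at 706, 809, 655 and 638 in CM (-0.38 ± 0.06). Again no CM library reached the lowest control in these 3 genes.

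The cytokine Il6, whose promoter holds the other NF-kB match shown, was low in all libraries: 9.48, 8.08, 9.83 and 9.07 CPM in the controls and 4.27, 5.29, 5.94 and 5.29 in CM (-0.81 ± 0.13, edgeR adjusted p = 0.000585). Il1a, the alpha form of interleukin-1, was lower still, at 4.43, 3.44, 3.00 and 3.28 CPM against 1.71, 0.891, 1.01 and 2.00 (-1.33 ± 0.25, adjusted p = 0.00221). The groups were apart for both, which the naming rule required of Il1a. Vcam1, a leukocyte adhesion receptor, fell by 0.34 ± 0.05, the serum amyloid gene Saa3 by 0.99 ± 0.19 and Nfkbiz, a nuclear regulator of NF-kB, by 0.21 ± 0.05 on the log2 scale. The call of Nfkbiz ended in 5 of the 8 cases in which 1 library was left out (edgeR adjusted p up to 0.0827 without control replicate 3). Without CM replicates 3 and 4, 9 members stayed called lower. Of 16 macrophage and leukocyte markers only 2 were tested, Adgre1 had no count and Ptprc 1 count in the 8 libraries. Of those 2, Cd68 was not called (log2 fold change -0.00381). Cd14, the lipopolysaccharide co-receptor and the other of them, fell by 0.37 ± 0.07 (38.8, 39.4, 37.5 and 36.2 CPM to 31.2, 29.2, 27.6 and 29.2). This call ended without CM replicates 3 and 4 (edgeR adjusted p = 0.053). In these bulk libraries, fewer cells that make such RNA and less RNA per cell cannot be told apart.

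**Figure D3:**
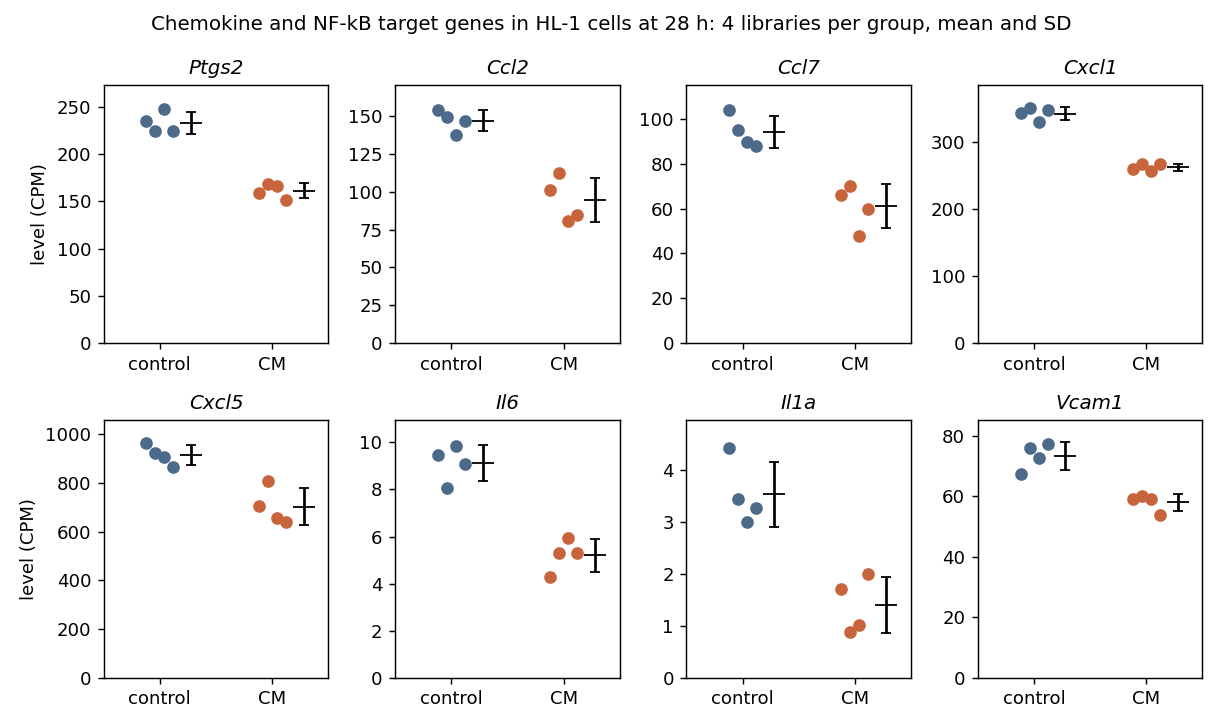
Levels in CPM of 8 chemokine and NF-kB target genes in the 4 control and 4 CM libraries at 28 h (points), with the mean and SD beside them, on axes that start at 0. In all 8 panels the 4 CM points lie under the 4 control points, by 1.31 times for Cxcl1 and 1.44 times for Ptgs2.

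Genes near these pathways also changed. Socs3, an inhibitor of cytokine receptors, fell from 112, 113, 119 and 114 CPM to 88.6, 74.5, 87.4 and 99.7 (-0.39 ± 0.09, edgeR adjusted p = 0.0163), and Osmr, a receptor subunit for oncostatin M, fell by 0.27 ± 0.04. Ptgs1, the constitutive cyclooxygenase, fell by 0.18 ± 0.03. C3, the central complement component, went the other way, from 71.4, 62.8, 74.9 and 68.5 CPM to 107, 108, 109 and 119 (0.67 ± 0.07, edgeR adjusted p = 9.87e-07). Of 16 tested genes of the acute-phase and complement list, 1 rose (C3), 3 fell (Saa3, Socs3 and Osmr) and 12 did not pass (25% called, against 1.92% of all genes). Ifitm3, an interferon-induced membrane protein with close paralogs, fell by 0.39 ± 0.05. It was the 1 call among 21 tested interferon response genes (4.76%, against 1.92% of all genes). The call of Socs3 ended in 3 cases (adjusted p up to 0.064 without CM replicate 2) and with DESeq2 (adjusted p = 0.0567).

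Of 30 immediate early genes, which answer signals within minutes, 1 rose and 3 fell (13.3% called, against 1.92% of all genes). Nr4a2, an orphan nuclear receptor, was at 26.8, 25.2, 25.3 and 24.7 CPM in the controls and at 16.4, 12.4, 14.7 and 13.9 in CM (-0.83 ± 0.08, edgeR adjusted p = 1.15e-07). Its relative Nr4a3 fell by 0.87 ± 0.21 from a level of about 3 CPM, and Dusp6, a phosphatase of ERK kinases, by 0.21 ± 0.05. Egr1, a zinc-finger factor, rose by 0.24 ± 0.05. Rgs16, a brake on G protein signalling, fell from 27.6, 28.5, 28.2 and 26.8 CPM to 13.7, 13.9, 14.5 and 15.4 (-0.95 ± 0.08, edgeR adjusted p = 2.1e-08). The calls that ended when 1 library was left out were those of Nr4a3 (6 cases, adjusted p up to 0.101 without CM replicate 1), Dusp6 (3, up to 0.121 without CM replicate 3) and Egr1 (2, up to 0.0842 without CM replicate 4). Nr4a3 was not called after thinning all libraries to the lowest total (adjusted p = 0.106).

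Among muscle genes, Tnnt2 rose and Gja1 fell. Tnnt2 (chr1:135836354-135852260, plus strand), the cardiac troponin T gene of the thin filament, was at 28.4, 31.0, 27.7 and 31.1 CPM in the controls and at 44.5, 47.5, 47.3 and 45.7 in CM (0.65 ± 0.06, edgeR adjusted p = 3.87e-08). Ttn, the giant spring protein of the sarcomere, was at 4.43, 3.94, 4.66 and 4.22 CPM in the controls and at 6.21, 6.97, 6.51 and 8.25 in CM (0.69 ± 0.16, adjusted p = 0.0207). These were the 2 calls among 16 tested of 35 sarcomere and natriuretic peptide genes (12.5%, against 0.706% of all genes called higher), a list with a median of 0.17. Des, the intermediate filament of muscle, was not called (0.07 ± 0.06). Gja1 (chr10:56377330-56402513, plus strand), which encodes connexin 43, the gap junction channel that couples heart cells electrically, was at 508, 515, 537 and 497 CPM in the controls and at 413, 396, 410 and 390 in CM (-0.35 ± 0.03, edgeR adjusted p = 2.55e-07). Tnnt2 and Gja1 both separated the groups in every library, which the naming rule required of Tnnt2. Atp2b1, a calcium pump of the cell membrane, fell by 0.16 ± 0.03, and it and Gja1 were the 2 calls among 17 tested of 36 channel, gap junction and calcium genes (11.8%, against 1.22% of all genes called lower). None of 19 tested cardiac transcription factors was called, with a median of 0.04. Ttn lost its call in 4 cases (adjusted p up to 0.0841 without CM replicate 4) and Atp2b1 without CM replicates 3 and 4 (adjusted p = 0.186).

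Smooth muscle actin Acta2, at 206, 244, 208 and 267 CPM in the controls, rose to 286, 284, 299 and 283 in CM (0.32 ± 0.06, edgeR adjusted p = 0.00139). Synpo2, an actin-binding protein of the Z-disc, rose by 0.31 ± 0.07, a call lost in 5 cases (adjusted p up to 0.0976 without CM replicate 3). All 9 tested of 12 smooth muscle markers were above 0, and 2 of them were called (22.2%, against 0.706% of all genes called higher). The summed level of the list was 1272 to 1368 CPM in control and 1396 to 1587 in CM. The part of this in the rises of muscle genes was not tested.

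Genes of the extracellular matrix changed in both directions: of 39 tested of 43, 5 rose, 4 fell and 30 did not pass (23.1% called, against 1.92% of all genes, median 0.04). Dcn (chr10:97479609-97518143, plus strand), a small proteoglycan that binds collagen and TGF-beta, had the smallest p of all genes. It was at 39.7, 38.7, 39.4 and 39.2 CPM in the controls and at 19.4, 18.5, 19.3 and 17.9 in CM (-1.06 ± 0.06, edgeR adjusted p = 8.72e-12). The 4 libraries of each group lay within about 1 CPM of their mean, and the control level was 2.09 times that in CM. Col3a1, a fibrillar collagen at 1978, 1950, 2044 and 1880 CPM in the controls, was at 1603, 1550, 1574 and 1730 in CM (-0.28 ± 0.04, adjusted p = 0.000158). Timp1, an inhibitor of matrix metalloproteinases, fell by 0.26 ± 0.05 and the protease Adamts1 by 0.25 ± 0.06. The rises were in Thbs1, thrombospondin-1, from 954, 998, 998 and 1033 CPM to 1184, 1157, 1280 and 1217 (0.28 ± 0.03, edgeR adjusted p = 1.04e-05), Lox, the collagen cross-linking oxidase (0.22 ± 0.03), Col12a1 (0.25 ± 0.05), Col1a2 (0.21 ± 0.05) and the proteoglycan Bgn (0.16 ± 0.04). Dcn and Bgn, both small leucine-rich proteoglycans, thus moved in opposite directions. Calls were lost with 1 library left out for Col1a2 (5 cases, adjusted p up to 0.118 without control replicate 1), Adamts1 (4, up to 0.0994 without control replicate 1) and Bgn (2, up to 0.0857 without control replicate 1), and without CM replicates 3 and 4 for Col12a1 (0.131). Of 12 tested fibroblast markers, which share Dcn, Col3a1 and Col1a2 with this list, 1 rose and 2 fell (25% called, against 1.92% of all genes). The summed level of the markers was 9489 to 10023 CPM in control and 8894 to 9962 in CM.

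H19 (chr7:142575529-142578143, minus strand), an imprinted long non-coding RNA, was at 206, 244, 211 and 265 CPM in the controls and at 459, 400, 469 and 452 in CM. Every CM library lay above every control, which the naming rule required, and the mean was 1.92 times as high (0.94 ± 0.06, edgeR adjusted p = 3.37e-10). Igf2, its imprinted neighbour, had no count in the 8 libraries. The list of IGF, insulin and FGF signalling, which holds H19, had 3 rises and 5 falls among 36 tested genes (22.2% called, against 1.92% of all genes, median 0.04). Irs1, an adaptor of the insulin receptor, rose by 0.22 ± 0.04 and Igfbp7, a secreted IGF-binding protein, by 0.38 ± 0.08. The falls were in secreted growth factors and a binding protein: Hgf from 42.1, 35.4, 40.4 and 35.7 CPM to 29.4, 26.9, 25.6 and 29.3 (-0.47 ± 0.06, edgeR adjusted p = 5.35e-05), Igfbp4 (-0.52 ± 0.08), Fgf7 (-0.27 ± 0.05) and the EGF receptor ligands Areg (-0.39 ± 0.09) and Ereg (-0.29 ± 0.06). The calls of Areg (3 cases, adjusted p up to 0.0919 without control replicate 3) and Ereg (1 case, 0.0504 without control replicate 2) ended when 1 library was left out, and those of Fgf7 (0.0607) and Igfbp7 (0.146) ended without CM replicates 3 and 4.

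In the Notch and Wnt list, 3 of 28 tested genes rose (10.7%, against 0.706% of all genes) and none fell, with a median of 0.10. They were Jag2, a Notch ligand (0.46 ± 0.10), Axin2, a feedback inhibitor of Wnt signalling and a common reporter of it (0.46 ± 0.10), and Lef1, a nuclear partner of β-catenin (0.52 ± 0.12, from 4.80, 4.44, 4.61 and 4.60 CPM to 5.19, 7.39, 7.07 and 6.85). In the TGF-beta and BMP list, 32 genes were tested: 2 rose, 1 fell and 29 did not pass (9.38% called, against 1.92% of all genes). Tgfb2, a ligand (0.36 ± 0.07), and Fstl1, a secreted glycoprotein (0.16 ± 0.04), rose. Grem1, a secreted BMP antagonist, fell from 709, 654, 721 and 680 CPM to 514, 528, 497 and 494 (-0.44 ± 0.03, edgeR adjusted p = 9.48e-09). Of 25 tested adhesion and integrin genes, 1 rose, 2 fell and 22 did not pass (12% called, against 1.92% of all genes). Itgb7, an integrin subunit, fell by 0.48 ± 0.08, Vcam1 fell as given above and Ncam1 rose by 0.23 ± 0.05. The membrane glycoprotein gene Pdpn was among the smallest p, at 233, 218, 241 and 241 CPM in the controls and 171, 178, 178 and 171 in CM (-0.42 ± 0.04, adjusted p = 1.04e-07). With 1 library left out the calls ended of Lef1 (7 cases, adjusted p up to 0.0858 without CM replicate 3), Fstl1 (3, up to 0.156 without CM replicate 3) and Axin2 (2, up to 0.0721 without control replicate 3). Without CM replicates 3 and 4 the calls of Jag2 (0.239), Tgfb2 (0.0684) and Ncam1 (0.167) ended.

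Targets of the glucocorticoid receptor were examined because the CM group carries DEX synchronization in its label. Of 30 listed genes 23 were tested, and 2 rose and 3 fell (21.7% called, against 1.92% of all genes), with a median of -0.03. Fkbp5, a chaperone that is a classical glucocorticoid target, was at 44.5, 44.4, 48.0 and 46.5 CPM in the controls and at 56.0, 56.9, 55.7 and 50.9 in CM (0.26 ± 0.05, edgeR adjusted p = 0.00676). Pdk4, a kinase that limits glucose oxidation, rose by 0.24 ± 0.05 to a level that did not overlap with control. Sgk1, the serum and glucocorticoid regulated kinase, moved the other way, from 149, 144, 150 and 144 CPM to 129, 131, 133 and 126 (-0.18 ± 0.04, adjusted p = 0.0108), as did Angptl4, an inhibitor of lipoprotein lipase (-0.30 ± 0.07), and Anxa1, an anti-inflammatory phospholipid-binding protein (-0.16 ± 0.04). Tsc22d3, which encodes the glucocorticoid-induced leucine zipper, was not called (0.06 ± 0.07, edgeR adjusted p = 0.778), nor was the receptor gene Nr3c1 (-0.03 ± 0.04). Leaving out 1 library ended the calls of Anxa1 (6 cases, adjusted p up to 0.108 without control replicate 4), Pdk4 (3, up to 0.0825 without control replicate 3) and Angptl4 (1, 0.0843 without control replicate 4), and that of Sgk1 ended without CM replicates 3 and 4 (0.0989).

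Several large programmes showed few or no calls. In 9 further lists no member of 283 tested passed, against 1.92% of all genes, and their medians lay between -0.09 and 0.18. These were the lists of cardiac transcription factors, G2 and mitosis genes, cholesterol synthesis, nuclear-encoded respiratory chain subunits, mitochondrially encoded genes, heat shock proteins, NRF2 and glutathione defence, cytosolic ribosomal proteins and replication-dependent histones. All 34 S phase genes had values below 0, with a median of -0.10, and 3 were called lower (8.82%, against 1.22% of all genes). They were Rfc3, a clamp loader subunit (-0.26 ± 0.06), Slbp, the histone mRNA binding protein (-0.24 ± 0.06), and Tk1, thymidine kinase (-0.19 ± 0.05). Leaving out 1 library moved that count from 0 to 7. The call of Rfc3 ended in 4 cases (edgeR adjusted p up to 0.0963 without CM replicate 3), that of Slbp in 5 (up to 0.139 without control replicate 2) and that of Tk1 in 6 (up to 0.211 without CM replicate 3). Another 7 lists had 1 call each (2.7% to 4.76% of tested members, against 1.92% of all genes). Among these calls was Hif1a, the oxygen-regulated transcription factor, which fell from 438, 438, 450 and 412 CPM to 378, 377, 369 and 349 (-0.24 ± 0.04, edgeR adjusted p = 0.00112). The other 32 tested genes of glycolysis and the hypoxia response did not pass. In the lysosome list the proteases Ctsl (-0.25 ± 0.04) and Ctsb (-0.15 ± 0.03) fell (5.71%, against 1.22% of all genes called lower) and 33 of 35 genes did not pass.

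**Figure D4:**
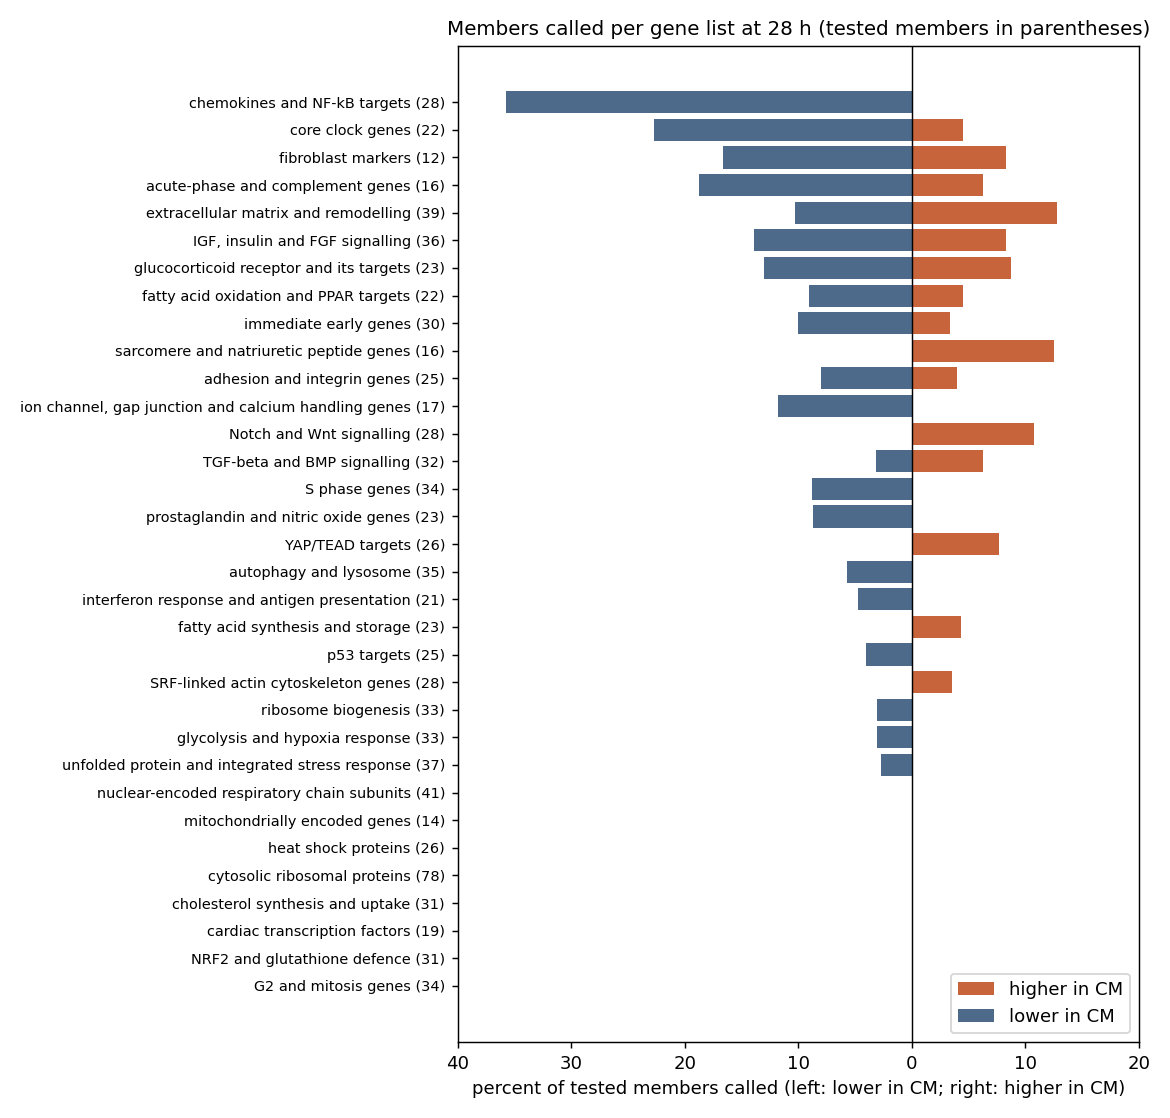
Percent of the tested members of each gene list called lower (left) or higher (right) in CM at 28 h, with the number tested in parentheses, for the 33 lists with at least 10 members tested. Of these, the chemokine and NF-kB list has the highest percentage lower (35.7%), the clock list has calls on both sides (27.3% in all), and 8 lists have none, against 1.92% of all genes tested.

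The effect of CM at 28 h was set against that at 16 h, which has its own 4 controls, so the effects share no library. At 16 h, 294 genes (2.03%) were called, 107 of them also at 28 h, which is 38.5% of the calls at 28 h and 36.4% of those at 16 h. Of the 107, 63 were lower at both times, 32 higher at both and 12 went opposite ways. The 12 were Arntl, Cry1, Nr1d2, Per2, Per3 and Tef of the clock list, and Coq10b, Fgd3, Plat, Plau, Spon2 and Wee1. A test of the difference itself, the effect at 28 h minus that at 16 h, called 40 genes (0.277%), 15 above 0 and 25 below (39 below without CM replicate 2 at 28 h, 10 above without control replicate 1 at 28 h). Of the 278 genes called at 28 h, the difference was called for 21 and not for 257.

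Among genes called at 28 h, the largest called differences were those of clock genes. Per2 was at 28.9 ± 2.97 CPM in control and 48.6 ± 2.60 in CM at 16 h (SD, n = 4), and at 20.7 ± 1.57 and 11.0 ± 0.55 at 28 h, so that its effect turned from 0.75 to -0.91 (difference -1.66 ± 0.11, edgeR adjusted p = 1.51e-10). Arntl mirrored it, at 17.6 ± 0.742 CPM in control and 8.02 ± 0.474 in CM at 16 h and at 42.7 ± 0.646 and 50.9 ± 1.66 at 28 h (difference 1.39 ± 0.08, adjusted p = 4.9e-11). Differences were also called for Per3 (-1.49), Dbp (-1.25), Tef (-1.11), Cry1 (-0.95), Nr1d2 (-0.69) and Cry2 (-0.58). That makes 8 of 22 clock genes, against 0.277% of all genes tested, and Dbp and Cry2 among them were not called at 28 h. The called difference of Cry2 ended in 12 of the 16 cases with 1 HL-1 library left out (edgeR adjusted p up to 0.138 without control replicate 3 at 28 h). It also ended with limma-voom (0.0564), after thinning (0.0963) and without CM replicates 3 and 4 at 28 h (0.107).

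Some chemokine and NF-kB target genes differed between the times in another way, with no call at 16 h for Ptgs2, Ccl2, Ccl7 and Cxcl1. Of the 28 tested genes of that list, 5 had a called difference (against 0.277% of all genes), namely these and Lcn2. Cxcl5, Il6, Il1a, Vcam1, Saa3 and Nfkbiz, also called lower at 28 h, had no called difference. Ptgs2 was at 143 ± 10.5 CPM in control and 142 ± 3.72 in CM at 16 h against 233 ± 11.4 and 161 ± 8.08 at 28 h (difference -0.52 ± 0.07, edgeR adjusted p = 0.000109). Ccl2 (-0.68), Ccl7 (-0.70), Cxcl1 (-0.53) and the immediate early gene Nr4a2 (-0.55) also had a called difference. In control medium Cxcl1 was at 102 ± 11.9 CPM at 16 h and 343 ± 9.4 at 28 h, so the level against which CM is compared was itself higher at 28 h. The plasminogen activators Plat (0.76) and Plau (0.50), the matrix protein Spon2 (0.52) and Lox (0.33) had called differences above 0, as had Tinagl1 (0.66) and Dusp27 (0.56), neither of them called at 28 h. The steepest differences below 0 were those of Lcn2, a siderophore-binding acute-phase protein (-2.99 ± 0.53), and Serpina3n, a serine protease inhibitor (-2.29 ± 0.42). Their group means were under 3 CPM. They rose at 16 h (3.20 and 2.79) and gave 0.20 ± 0.29 and 0.50 ± 0.21, not called, at 28 h. By contrast, the effects on Dcn (-1.05 at 16 h and -1.06 at 28 h), Tnnt2 (0.70 and 0.65), Grem1 (-0.38 and -0.44), Gja1 (-0.21 and -0.35), H19 (1.32 and 0.94) and C3 (1.24 and 0.67) had 1 sign at both times and no called difference, though with DESeq2 those of H19 and C3 were called (adjusted p = 0.02 and 0.019). Leaving out 1 library ended the called difference of Dusp27 (7 cases, edgeR adjusted p up to 0.0805 without control replicate 1 at 16 h, and 0.0634 after thinning), Nr4a2 (5, up to 0.0719 without control replicate 4 at 16 h) and Tinagl1 (5, up to 0.062 without control replicate 1 at 28 h). The differences of Nr4a2 (0.104) and Tinagl1 (0.118) also ended without CM replicates 3 and 4 at 28 h. Leaving out 1 library ended the call of Plau at 28 h in 1 case (0.0507 without control replicate 1).

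**Figure D5:**
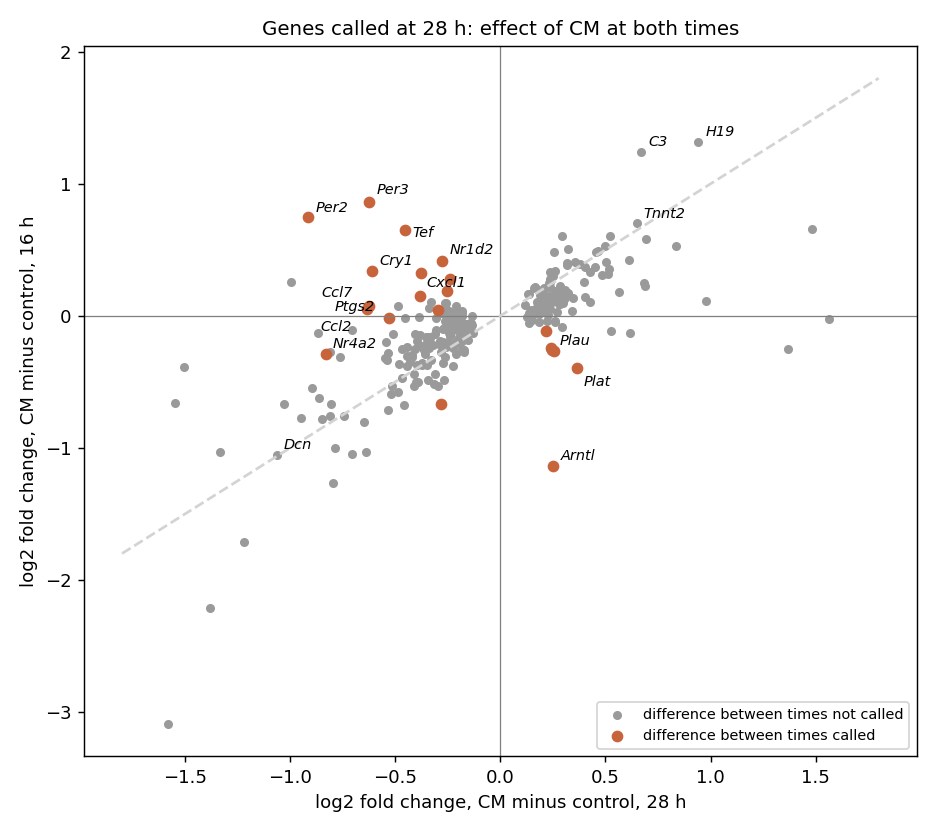
Log2 fold change, CM minus control, at 28 h (horizontal) against 16 h (vertical) for the genes called at 28 h; the dashed line marks equal effects, and orange points have a called difference between the times (21 of 278). Per2, Per3, Tef, Cry1 and Nr1d2 lie at the upper left, Arntl at the lower right, and Dcn and Tnnt2 close to the line.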

How the data were processed

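Total RNA of the 8 HL-1 libraries at 28 h was extracted with TRIzol and made into libraries with a NEBNext Ultra II RNA kit, per the labels' protocols. The deposited values are whole-number read counts per gene, not normalized. The submitters' processing notes name FastQC 0.11.8, STAR and the builds mm10 and GRCm38, without their roles. Which counter made the table, with which strand setting and which annotation release, is not given in the sources used here, so reads of overlapping and antisense genes could not be told apart. Positions come from GENCODE M21 on GRCm38, which held 94% of the gene IDs, nearly all under another version number.

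Counts of the 16 HL-1 libraries were filtered with filterByExpr, scaled with TMM and fitted with edgeR 4.0.16 in R 4.3.3 (quasi-likelihood test, 1 mean per group, Benjamini-Hochberg adjusted p of 0.05 over 14450 genes). The difference between the times is a contrast in the same fit, so all groups share 1 estimate of spread. Errors of fold changes are standard errors of this fit, errors of levels are SD. With 16028158 to 19176853 counts per library, counting error limits genes near 1 CPM most. The fitting script was tested on simulated data. Alternatives were no filter, RLE or total-count scaling, DESeq2 1.42.0, limma-voom (limma 3.58.1), a replicate block, thinning to the lowest total, the 8 libraries alone, each library left out, and, added after the Malat1 levels were seen, CM replicates 3 and 4 left out together. Zero limits cover counting error only.

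The named genes are the 15 largest rises and falls and the 10 smallest p among called genes with separated groups and at least 1 CPM, all clock genes but 1 that is not reported here, up to 6 genes of smallest p per list, and the 6 largest differences between the times each way. List members may also be named for their role. The genes and the 38 lists were chosen with earlier results of these data known. AML12 libraries were not used here.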

Additional observations from a re-analysis of the deposited data

Results flagged for a closer look

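In 16 of 248 groups of 4 libraries, 1 library stood far from the other 3 (Dixon's test at 95%, which flags about 1 group in 20 by chance). Of the 16, 11 were in CM, 6 of them in CM replicate 4. CM replicate 4 was high for C3 (119 CPM, the others 107 to 109), Klhl33 (6.04, others 4.73 to 4.88), Des (727, others 634 to 648), Irs1 (290, others 254 to 260) and Lcn2 (2.10, others 1.40 to 1.42), and low for Atp2b1 (499, others 521 to 524). CM replicate 3 was high for Fstl1 (701, others 641 to 648) and Plat (83.1, others 72.2 to 74.0). CM replicate 1 was high for Pdk4 (58.3, others 52.8 to 53.5) and low for Slc40a1 (7.30, others 8.07 to 8.13) and Etv5 (17.3, others 18.0 to 18.2). In control, replicate 4 was high for Edn1 (1.70, others 1.23 to 1.28), replicate 3 for Col12a1 (355, others 323 to 325) and replicate 2 for Gm15867 (0.501, others 0.278 to 0.315). Replicate 2 was low for Ciart (7.57, others 10.1 to 10.6) and replicate 1 for Egr1 (42.2, others 43.6 to 43.8).

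The effect of CM differed between 28 h and 16 h by a test of the difference in the edgeR fit for 21 named genes (log2 effect at 28 h minus effect at 16 h). The difference was below 0 for Lcn2 (-2.99), Serpina3n (-2.29), Per2 (-1.66), Per3 (-1.49), Dbp (-1.25), Tef (-1.11), Cry1 (-0.95), Ccl7 (-0.70), Nr1d2 (-0.69), Ccl2 (-0.68), Cry2 (-0.58), Nr4a2 (-0.55), Cxcl1 (-0.53) and Ptgs2 (-0.52). It was above 0 for Arntl (1.39), Plat (0.76), Tinagl1 (0.66), Dusp27 (0.56), Spon2 (0.52), Plau (0.50) and Lox (0.33).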

How the results depend on the processing

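The count of 278 calls at 28 h was 400 without the filter, 341 with DESeq2 and 270 to 308 with the other scalings, limma-voom, thinning or the 8 libraries alone. It ran from 171 to 327 with 1 library left out and was 113 without CM replicates 3 and 4. The count of 40 differences between the times was 97 without the filter and 68 with DESeq2, and 32 to 55 with 1 library left out. No called gene of the 101 named reversed its sign in any of the 17 alternatives for 28 h. They were chosen as called genes of these same counts, so a kept sign was nearly certain and is no further support. Of the 101, 52 kept the call in all alternatives, 68 in the 8 that leave out 1 library, and 56 without CM replicates 3 and 4. Slbp (adjusted p = 0.0503) and Anxa1 (0.054) were not called with total counts only, Tk1 not with limma-voom (0.0581), Sprr2h (0.0501) and Klhl33 (0.114) not after thinning, and Gm37366 not without the filter (0.0548) or with the 8 libraries alone (0.0557). Without the filter, Malat1 (edgeR adjusted p = 9.19e-17, against 0.351 in the main fit), Dbp (0.00013) and Cry2 (0.0268) were called. Dbp (0.0234) and Cry2 (0.0324) were also called with DESeq2 and Dbp with the 8 libraries alone (0.022). The genes called higher at 28 h were 180 without the filter. The causes were not tested.

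Among named genes, signs turned for values that were not called. Clock gave 0.00855 with total counts only, 0.00805 with the 8 libraries alone, 0.0447 without CM replicates 3 and 4 and -0.0351 to 0.0327 with 1 library left out. Nr1d1 gave -0.0106 thinned, -0.0193 without those 2 libraries and -0.0358 to 0.0397 with 1 left out. Malat1 gave -0.16 without those 2 libraries. Nfil3 gave 0.00012 without them and -0.0469 to 0.00839 with 1 left out, Bhlhe40 -0.0622 to 0.0202 with 1 left out. The difference between the times for Dcn gave 0.00818 thinned, 0.000118 without them and -0.0618 to 0.0192 with 1 left out.

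With the replicate number as a block, 294 genes were called, 266 of them among the 278, and 49 differences. Over all tested genes, same-numbered libraries at 28 h did not deviate together (correlations of -0.0079, 0.0004, 0.061 and -0.071), and other pairs gave -0.076 to 0.05. Such a check over all genes cannot show a shared culture or batch that touches few of them. Whether same-numbered libraries are paired is therefore not known. The block ended the call of Etv5 (adjusted p = 0.0648) and also brought Dbp under the threshold (0.024). Depth limits genes near 1 CPM, where most of the steepest changes lie.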

Other observations

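Some groups of called genes outside the lists were named after their values were seen and are given as values only. The PEA3 group of ETS transcription factors was lower in CM at 28 h: Etv1 fell from 51.6, 47.6, 51.2 and 45.2 CPM to 39.0, 38.0, 35.8 and 35.0 (-0.41 ± 0.06, edgeR adjusted p = 9.6e-05), and Etv4 from 53.7, 56.8, 57.8 and 54.1 CPM to 45.8, 44.4, 39.1 and 46.8 (-0.34 ± 0.07, adjusted p = 0.00674). Etv5 gave -0.23 ± 0.06 (adjusted p = 0.0493), and its call ended in all 8 cases with 1 library left out and in 7 other alternatives (adjusted p up to 0.196 without the filter). That of Etv4 ended without CM replicates 3 and 4 (adjusted p = 0.0977). The neurofilament genes Nefl and Nefm, neighbours on chromosome 14, both fell: Nefl from 31.8, 34, 32.3 and 32.4 CPM to 25.4, 25.5, 23.7 and 24.2 (-0.40 ± 0.05, edgeR adjusted p = 5.48e-05) and Nefm by 0.36 ± 0.06, with a call that ended without CM replicates 3 and 4 (adjusted p = 0.0783).

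The proliferin genes Prl2c2 and Prl2c3, placental hormone relatives with nearly the same sequence, were lower together. Prl2c3 was at 210, 191, 202 and 170 CPM in the controls and 113, 125, 104 and 99.2 in CM (-0.81 ± 0.06, edgeR adjusted p = 1.09e-08), and Prl2c2 at 113, 92.3, 108 and 83.5 against 55.5, 63.9, 50.8 and 48.2 (-0.86 ± 0.09). How the authors' counting divided reads between the copies is unknown, so the 2 values are not independent.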
